A study of Mus musculus with 6 samples.

Results

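The 6 actin genes and 4 alpha-actinin genes of the mouse were followed in differentiating C2C12 cells with different hairpins against pyruvate kinase. They are the muscle actins Acta1, Acta2, Actc1 and Actg2, the cytoplasmic actins Actb and Actg1, the sarcomeric alpha-actinins Actn2 and Actn3, and the non-muscle alpha-actinins Actn1 and Actn4. The genes were taken by name, not by their values, after NCBI gene numbers had been matched to symbols and the values of transcripts summed per gene. All 10 were found among the 17558 genes of the table, and all 10 passed the filter on low counts.

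C2C12 is an immortalized line of mouse myoblasts, which stop dividing and form multinucleated myotubes in medium low in serum. RNA was measured in 6 libraries, 2 for each of 3 groups, after 48 h in DMEM with 2% horse serum and insulin, transferrin and selenium. All groups carried a stably integrated short hairpin RNA: a scrambled one in the controls (shScr), one against the Pkm1 splice isoform of pyruvate kinase (shPkm1), or one against the Pkm2 splice isoform (shPkm2). Whether each line was a clone or a pool, and whether the 2 libraries of a group came from separate cultures, is not given in the sources used here, so p-values measure only the spread between these samples.

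Actins are the monomers of thin filaments. The products of Acta1 and Actc1 build the thin filaments of skeletal and cardiac sarcomeres, those of Acta2 and Actg2 belong to smooth muscle, and those of Actb and Actg1 form the cytoskeleton of nearly all cells. Developing skeletal muscle passes through a stage in which Acta2 and Actc1 are made together with Acta1. Alpha-actinins cross-link actin filaments: Actn2 and Actn3 at the Z-disc, where thin filaments of neighbouring sarcomeres meet, and Actn1 and Actn4 at adhesions and along stress fibres. Serum response factor (SRF) binds CArG boxes in many of these genes, and its coactivators Mrtfa and Mrtfb are held back by unpolymerized actin.

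The family members differ little in sequence, which is shown here because the measured shares depend on telling them apart. The first 36 coding bases of the 6 actins follow (GENCODE M21 transcripts, GRCm38, 5′ to 3′). Capitals mark bases without an identical counterpart in the aligned coding sequence of Acta1.
Acta1: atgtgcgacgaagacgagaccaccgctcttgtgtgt
Actc1: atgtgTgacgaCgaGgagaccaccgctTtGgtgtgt
Acta2: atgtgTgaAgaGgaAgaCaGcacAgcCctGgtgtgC
Actg2: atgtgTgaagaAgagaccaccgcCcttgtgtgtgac
Actb: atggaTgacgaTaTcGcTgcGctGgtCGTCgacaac
Actg1: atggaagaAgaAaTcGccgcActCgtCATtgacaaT
Actg2 has 3 such bases and Actc1 has 5, while Acta2 and Actg1 have 10 each and Actb has 11. Over whole coding sequences, identity between actins lay between 81.5% (Acta2 or Actc1 against Actg1) and 88.7% (Actb against Actg1). Alpha-actinins were 73.6% (Actn3 against Actn4) to 78.8% (Actn1 against Actn4) identical. The longest stretch that the transcripts of 2 actins shared without a mismatch was 77 bases (Acta1 and Actb), and 65 bases for 2 alpha-actinins (Actn1 and Actn4). Read length is not given in the sources used here, so how reads from such stretches were divided between paralogues is uncertain.

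The genes lie apart on 9 chromosomes of GRCm38, and all 10 are on the minus strand. Acta1 is at chr8:123891758-123894775, Actc1 at chr2:114047282-114052875, Acta2 at chr19:34240336-34255585 and Actg2 at chr6:83512909-83536251. The cytoplasmic genes Actb and Actg1 are at chr5:142903115-142907976 and chr11:120345687-120348495. The sarcomeric alpha-actinin genes Actn2 and Actn3 are at chr13:12269426-12340732 and chr19:4861216-4877909, and the non-muscle genes Actn1 and Actn4 at chr12:80167542-80260420 and chr7:28893248-28962351. Actc1 overlaps A530058N18Rik, Acta1 overlaps Gm20388 and Actn4 overlaps Capn12 on the opposite strand, and Actn1 overlaps Gm47766 and Gm47767 there. On the same strand Actg1 overlaps Mir6935 and Gm23419, Actn1 overlaps Gm47765 and Actn4 overlaps Gm44699. These overlaps are between whole gene spans, and shared exons were not looked for. Strandedness of the libraries is not given in the sources used here, so whether reads of these partners were told apart is uncertain.

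Of the 10 genes, 7 had an entry in the RefSeq table of promoters (GRCm38.p6), and the 250 bases before the start that the table uses were searched on both strands. For Acta2 this window (chr19:34255374-34255623) lies mostly inside the gene as located above, so its matches are not given. The windows of Actn1 (chr12:80260364-80260613) and Actn4 (chr7:28962333-28962582) overlap the ends of their genes in part. A CArG box matched in full in Acta1, Actc1 and Actg1, against 1.47% of 32851 promoters, and it is shown in capitals with up to 40 bases on either side, 5′ to 3′ on the minus strand. Acta1 is at chr8:123894799-123894888, Actc1 at chr2:114052876-114052962 and Actg1 at chr11:120348536-120348625.
Acta1: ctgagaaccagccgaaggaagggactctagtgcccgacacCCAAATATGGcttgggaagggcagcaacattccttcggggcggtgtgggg
Actc1: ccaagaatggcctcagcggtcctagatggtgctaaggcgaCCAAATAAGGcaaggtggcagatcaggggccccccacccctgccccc
Actg1: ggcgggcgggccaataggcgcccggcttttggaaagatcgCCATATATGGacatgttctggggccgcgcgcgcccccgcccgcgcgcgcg
By the RefSeq start used here, the nearest box is that of Actc1, 38 to 47 bases before it, followed by Acta1 at 64 to 73 bases and Actg1 at 81 to 90 bases. From the starts of the GENCODE transcripts used for the coding sequences, the box of Actg1 is nearer than that of Acta1. With at most 1 letter off, the box was found 4 times in Actc1, 3 times in Acta1 and 1 time in Actg1, and 18.6% of all promoters held at least 1. The letters CATTCC were found in Acta1 and Actn4 (12.6% of all promoters), and CAGCTG, a form of the E-box CANNTG, in Acta1 (13.0%). These 3 genes with a full box did not move in 1 direction in what follows: Acta1 and Actc1 fell, and Actg1 rose or did not pass the test.

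Libraries held between 18216896 and 19796036 estimated counts, and across genes the libraries of a group had correlations of log2 CPM (depth-scaled counts) of 0.9882 (shScr), 0.9935 (shPkm1) and 0.9943 (shPkm2). The targeted gene checks the labels: the Pkm1 isoform stood at 545.8 and 588.8 TPM (a level per length, as a share of all transcripts of the library) in shScr, 242.7 and 218.2 in shPkm1, and 254.1 and 254.2 in the shPkm2-labelled libraries. The Pkm2 isoform stood at 1073 and 1517, 1278 and 1380, and 2700 and 2630 TPM, so it was not lower in the libraries that name it, and directions for that group belong to its label. Pkm as a whole had, against shScr, a log2 fold change of -0.63 in shPkm1 (adjusted p 0.00107) and of 0.20 under the shPkm2 label (adjusted p 0.198), and of 0.83 (adjusted p 0.000159) between them. Of markers of the cell line, the summed TPM of 8 myotube genes was 29310 and 22476 in shScr, 9533 and 10143 in shPkm1, and 235.8 and 253.1 in the shPkm2-labelled libraries. The sum of 6 myoblast genes was 2868 and 3047, 2557 and 2709, and 1092 and 1002 TPM, most of it Des, while Myf5 within it went the other way, at 11.6 and 13.4, 20.8 and 18.2, and 59.4 and 54.2 TPM. Endothelial markers were at or near 0 in every library (0 of 4 above 1 TPM). Fold changes below come from counts scaled by edgeR's trimmed means (TMM). With library totals in their place the median of all genes moved up by 0.19 in shPkm1 and 0.32 in the shPkm2-labelled libraries against shScr, and by 0.13 between them. The share of calls that were higher then rose from 50.3% to 65.8%, from 49.8% to 69.3% and from 48.4% to 61.3%.

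Across the family, genes of the sarcomere fell and genes of the cytoskeleton rose or did not pass the test, and changes were larger in the shPkm2-labelled libraries than in shPkm1 for each of the 5 that fell. Against shScr, 5 of the 10 genes were lower in shPkm1 (Acta1, Acta2, Actc1, Actn2 and Actn3), 1 was higher (Actg2) and 4 did not pass the test. Of all 12643 genes tested in that comparison, 31.4% were lower and 31.8% higher. The same 5 genes were lower in the shPkm2-labelled libraries, 3 were higher (Actb, Actg1 and Actn1), and Actg2 and Actn4 did not pass the test, while over all genes 34.2% were lower and 33.9% higher. These comparisons share the control libraries. The median log2 fold change of the 10 genes was -0.64 in shPkm1 and -1.21 in the shPkm2-labelled libraries, against -0.00015 and 0.0074 over all genes tested. In the direct contrast, 6 genes were lower in the shPkm2-labelled libraries than in shPkm1 (Acta1, Acta2, Actc1, Actg2, Actn2 and Actn3), 3 were higher (Actb, Actg1 and Actn1), and Actn4 did not pass the test. Over all genes 27.3% were lower and 25.7% higher in that contrast, and the median of the 10 genes was -1.21 against 0.0046. In bulk samples, fewer cells of a type and less RNA per cell cannot be told apart. The sums of the myotube and myoblast markers given above, none of them among the 10 genes, moved with the falls, and their part in them was not tested.

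**Figure D1:**
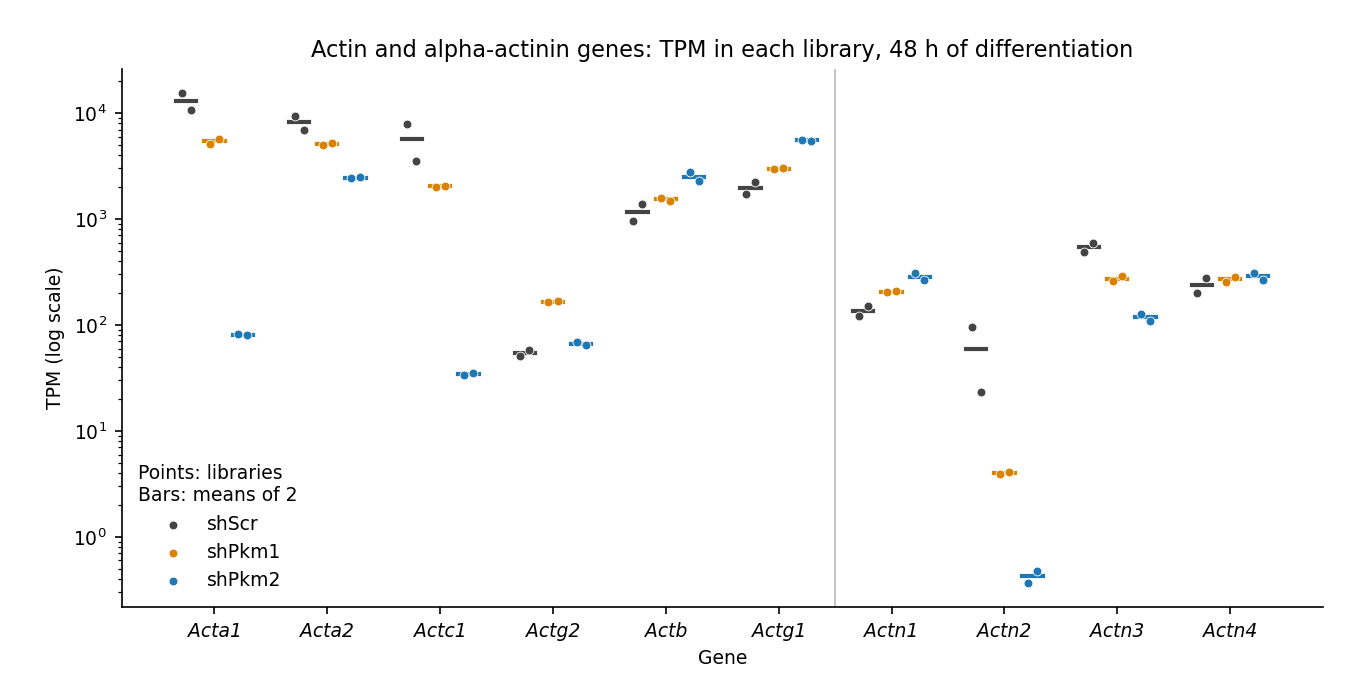
Level of each gene in TPM (log axis) in the 6 libraries, with points for libraries and bars for the means of 2 libraries, actins left of the grey line and alpha-actinins right of it. Acta1 and Actc1 reach from 3537 TPM or more in shScr to 82.6 or less in the shPkm2-labelled libraries, while Actb, Actg1 and Actn1 have their highest values there.

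Acta1, the actin of adult skeletal muscle, was the most abundant of the 10 genes in the controls. Its level was 15317 and 10686 TPM in shScr, 5152 and 5729 in shPkm1, and 82.6 and 79.9 in the shPkm2-labelled libraries. The groups did not overlap, and the control libraries lay further apart than those of either other group. In the edgeR quasi-likelihood test its log2 fold change against shScr was -1.66 (adjusted p 1.15e-05, SE 0.202) in shPkm1 and -7.80 (adjusted p 4.02e-11, SE 0.266) in the shPkm2-labelled libraries. The latter is a 222-fold lower level, and only 0.316% of all genes tested had as low or a lower value. Between the hairpin groups the log2 fold change was -6.13 (adjusted p 3.78e-10, SE 0.247).

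Actc1, the cardiac actin that skeletal myotubes make during development, fell in step with Acta1. It was at 7821 and 3537 TPM in shScr, 2027 and 2032 in shPkm1, and 33.6 and 35 in the shPkm2-labelled libraries. The groups did not overlap, but control library 1 held over 2 times the level of control library 2, a spread not seen in the other groups. The log2 fold change was -1.91 (adjusted p 9.1e-05, SE 0.294) in shPkm1 and -7.86 (adjusted p 1.3e-09, SE 0.388) in the shPkm2-labelled libraries. Without control library 1 these values were -1.10 and -7.05, and without control library 2 they were -2.43 and -8.37, with a call each time. The ratio of Acta1 to Actc1 in TPM stayed between 1.96 and 3.02 in the 6 libraries, although the level of each gene spanned over 2 orders of magnitude. Markers of cardiomyocytes, which also make Actc1, were low in all groups: the 5 of 6 genes found in the table summed to 25.2 and 28.9 TPM in shScr, 10.8 and 12.2 in shPkm1, and 17.4 and 18.6 in the shPkm2-labelled libraries.

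Acta2, the actin of vascular smooth muscle, fell too, but less. Its level was 9338 and 6999 TPM in shScr, 4978 and 5219 in shPkm1, and 2447 and 2469 in the shPkm2-labelled libraries. The groups did not overlap, and each step from shScr to shPkm1 to shPkm2 passed the test. Log2 fold changes were -1.09 (adjusted p 0.000212, SE 0.187), -2.24 (adjusted p 3.06e-07, SE 0.193) and, between the hairpin groups, -1.14 (adjusted p 0.000186, SE 0.187). The ratio of Acta2 to Acta1 was therefore 0.610 and 0.655 in shScr, 0.966 and 0.911 in shPkm1, and 29.6 and 30.9 in the shPkm2-labelled libraries.

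Actg2, the actin of visceral smooth muscle, was the only muscle actin with a rise. It was at 50.7 and 58.7 TPM in shScr, 163 and 168 in shPkm1, and 68.7 and 64.3 in the shPkm2-labelled libraries. The shPkm1 libraries stood above the other 4, which lay close together. The log2 fold change in shPkm1 was 1.21 (adjusted p 2.61e-07, SE 0.0958), and the shPkm2-labelled libraries were lower than shPkm1 by 1.38 on the log2 scale (adjusted p 6.38e-08, SE 0.0957). Against shScr the shPkm2-labelled libraries had a value of -0.17 (adjusted p 0.135, SE 0.0971), which was 0.15 with library totals. Markers of other cell types moved with the rise in shPkm1. The summed TPM of 6 smooth muscle markers was 130 to 141 in shScr, 194 to 208 in shPkm1 and 95.6 to 113 in the shPkm2-labelled libraries. Smtn made up most of each sum (122 and 117, 139 and 150, and 105 and 88.9 TPM). Of the 6 markers, Cnn1 and Aoc3 were also highest in shPkm1 (12.5 to 12.9 and 22.7 to 22.9 TPM), while the defining genes Myh11 and Myocd stayed below 0.08 TPM in every library. The sum of 6 fibroblast markers was 373 to 385, 2600 to 2641 and 63.9 to 70.5 TPM. Col1a1 made up most of each sum (359 and 362, 2585 and 2552, and 50.5 and 43.2 TPM), and Thy1, Tcf21 and Lum were at or near 0. Pdgfra did not follow the sum, at 1.02 and 1.61, 8.44 and 8.34, and 10.2 and 9.47 TPM, and Dcn was at 12.7 and 20.5, 46.8 and 39.4, and 9.67 and 11.2 TPM. The part of other cell types in the Actg2 result was not tested.

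The cytoplasmic actins moved the other way. Actg1 was at 1716 and 2242 TPM in shScr, 2956 and 3034 in shPkm1, and 5551 and 5483 in the shPkm2-labelled libraries, and the groups did not overlap. Its log2 fold change was 1.03 (adjusted p 1.79e-05, SE 0.137) in the shPkm2-labelled libraries and 0.82 between the hairpin groups (adjusted p 0.000222, SE 0.136). In shPkm1 the value against shScr was 0.22 (adjusted p 0.178, SE 0.136), but with library totals it was 0.41 and passed the test (adjusted p 0.014), and without control library 2 it was 0.32 and passed as well (adjusted p 0.0233).

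Actb stood at 963 and 1375 TPM in shScr, 1597 and 1493 in shPkm1, and 2753 and 2271 in the shPkm2-labelled libraries. The rise in the shPkm2-labelled libraries was 0.66 on the log2 scale (adjusted p 0.000977, SE 0.14) against shScr and 0.63 (adjusted p 0.00191, SE 0.14) against shPkm1. In shPkm1 the value was 0.02 (adjusted p 0.895, SE 0.14), and the CPM values of shPkm1 lay within the range of the controls. Without control library 1 it was -0.13. Actb, often used as a reference gene, was thus higher in the shPkm2-labelled libraries by a factor of 1.58. The ratio of Actg1 to Actb ranged only from 1.63 to 2.41 in TPM over the 6 libraries.

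**Figure D2:**
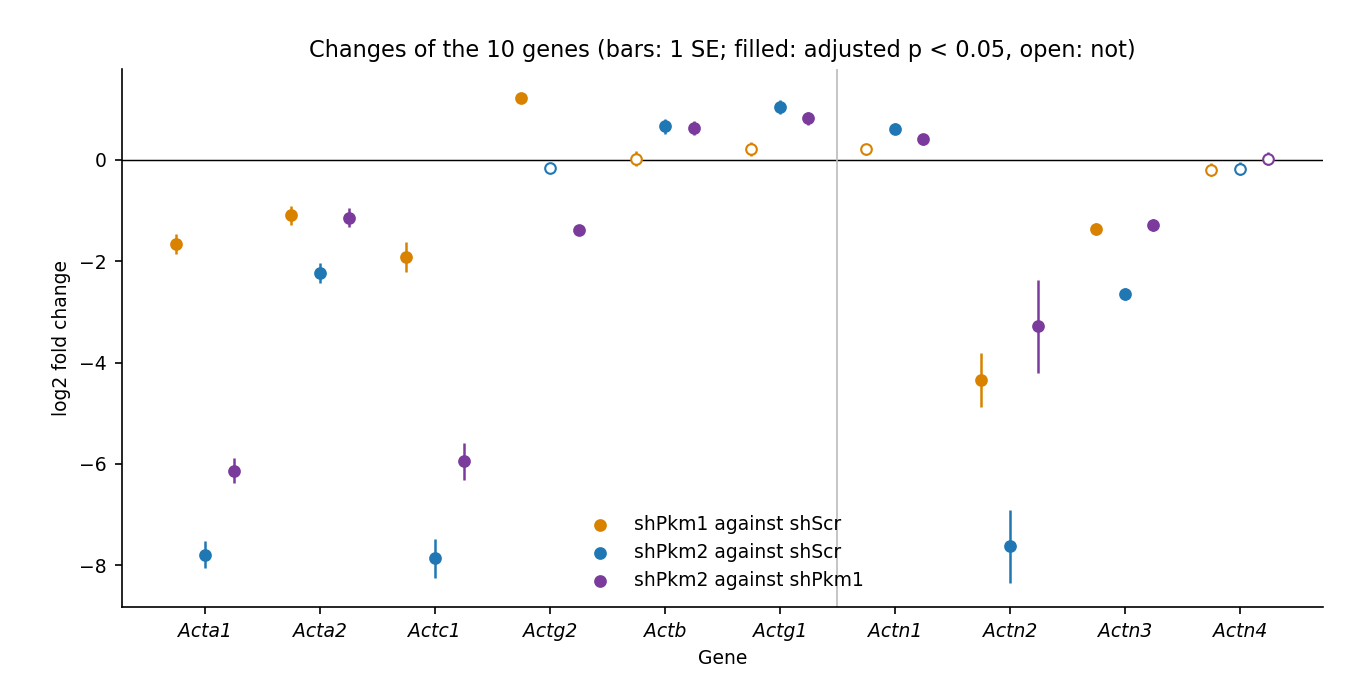
Log2 fold change of each gene in the 3 contrasts, with bars of 1 SE, filled points for an adjusted p under 0.05 and open points for the rest. The falls of Acta1, Actc1 and Actn2 in the shPkm2-labelled libraries lie below -7, Acta2 and Actn3 lie between -2 and -3, and no cytoplasmic actin or non-muscle alpha-actinin lies outside -0.2 to 1.1.

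Among alpha-actinins the sarcomeric genes fell. Actn2, the Z-disc alpha-actinin of all striated muscle, had 3444 and 829 estimated counts in shScr, 117 and 134 in shPkm1, and 12 and 16 in the shPkm2-labelled libraries. In TPM this was 96.4 and 23.3, 3.93 and 4.12, and 0.37 and 0.48. The groups did not overlap, yet control library 1 was over 4 times as high as control library 2, and 12 to 16 counts leave the lowest group imprecise. The log2 fold change was -4.34 (adjusted p 1.27e-05, SE 0.532) in shPkm1, -7.62 (adjusted p 7.49e-07, SE 0.719) in the shPkm2-labelled libraries, and -3.28 (adjusted p 0.00858, SE 0.917) between them. Against shScr these values were -2.85 and -6.13 without control library 1, and -5.07 and -8.35 without control library 2. A limma fit on log2(FPKM + 1), a scale on which falls of weakly expressed genes come out smaller, gave -3.29, -4.67 and -1.39 for the 3 contrasts, each with a call.

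Actn3, the alpha-actinin of fast fibres, was the most abundant alpha-actinin in the controls and fell by less than Actn2. It was at 493 and 589 TPM in shScr, 258 and 291 in shPkm1, and 128 and 109 in the shPkm2-labelled libraries, without overlap between groups. The log2 fold change was -1.36 (adjusted p 6.96e-07, SE 0.121) in shPkm1, -2.65 (adjusted p 9.01e-10, SE 0.126) in the shPkm2-labelled libraries and -1.29 (adjusted p 1.31e-06, SE 0.121) between them. For Actn3 control library 1 was the lower of the pair, unlike for Actn2. The ratio of Actn3 to Actn2 in TPM was 5.12 and 25.3 in shScr, 65.6 and 70.6 in shPkm1, and 345 and 226 in the shPkm2-labelled libraries.

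Of the non-muscle alpha-actinins, Actn1 rose in the shPkm2-labelled libraries and Actn4 changed little. Actn1 was at 122 and 152 TPM in shScr, 203 and 210 in shPkm1, and 309 and 264 in the shPkm2-labelled libraries. It rose in the shPkm2-labelled libraries by 0.61 on the log2 scale (adjusted p 0.00026, SE 0.111) against shScr and by 0.40 (adjusted p 0.00737, SE 0.11) against shPkm1. The second of these calls was lost without shPkm1 library 1 (0.33, adjusted p 0.103) and without shPkm2 library 1 (0.32, adjusted p 0.107). In shPkm1 the value was 0.21 (adjusted p 0.115, SE 0.11), with a call when library totals were used (0.40, adjusted p 0.00859) or control library 2 was left out (0.28, adjusted p 0.0297).

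Actn4 was at 202 and 278 TPM in shScr, 257 and 284 in shPkm1, and 310 and 267 in the shPkm2-labelled libraries, and all 3 groups overlapped. Its log2 fold changes were -0.19 (adjusted p 0.201, SE 0.128), -0.17 (adjusted p 0.24, SE 0.128) and 0.02 (adjusted p 0.908, SE 0.127). Actn4 was the only gene of the 10 without a call in any contrast. Without control library 1 it was called lower in both hairpin groups (-0.33, adjusted p 0.0109, and -0.31, adjusted p 0.0152), and with library totals the value for the shPkm2-labelled libraries was 0.15.

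These changes turned the makeup of the family around. The 4 muscle actins made up 92.4% and 85.5% of the summed actin TPM in shScr, 73.0% and 74.4% in shPkm1, and 24.1% and 25.5% in the shPkm2-labelled libraries. Acta1 alone went from 43.2% ± 0.416 (SD, n = 2) to 31.5% ± 1.33 and 0.762% ± 0.00882, while Actg1 went from 6.94% ± 2.92 to 17.3% ± 0.252 and 51.7% ± 1.38. The share of Acta2 in the 6 actins moved least among the abundant genes, from 27.3% ± 1.12 to 29.5% ± 0.0197 and 23.1% ± 0.962. Of the muscle actins that were left in the shPkm2-labelled libraries, Acta2 held 93.1% ± 0.185, against 30.8% ± 2.96 in shScr and 40.05% ± 0.501 in shPkm1. Shares are given as values and were not tested. An exact permutation test of 2 against 2 libraries cannot give a p below 0.333, and no model was fitted to shares.

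Total actin fell as well. The 6 actins together took 3.01% ± 0.729 of all TPM in shScr, 1.73% ± 0.0565 in shPkm1 and 1.07% ± 0.0378 in the shPkm2-labelled libraries. As a share of all TPM, the cytoplasmic pair went from 0.315% ± 0.0663 to 0.454% ± 0.00191 and 0.803% ± 0.0389. This offset only a part of the fall of the muscle actins from 2.69% ± 0.795 to 1.27% ± 0.0584 and 0.264% ± 0.00114. In shPkm1 neither Actb nor Actg1 passed the edgeR test on TMM-scaled counts, a scale on which both rose less than in TPM.

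For alpha-actinins the sarcomeric share was 64.6% and 58.7% in shScr, 36.3% and 37.4% in shPkm1, and 17.1% and 17.0% in the shPkm2-labelled libraries. Most of it was Actn3, at 54.0% and 56.5% in shScr, since Actn2 held 10.6% and 2.24% of alpha-actinin TPM in the control libraries, at most 0.544% in shPkm1 and at most 0.0749% in the shPkm2-labelled libraries. The summed level of the 4 genes changed less than that of the actins: 978 ± 90.8 TPM in shScr, 755 ± 47.4 in shPkm1 and 693 ± 74.7 in the shPkm2-labelled libraries. Actn4 exceeded Actn1 by 1.66 and 1.83 times in shScr and by 1.26 and 1.35 times in shPkm1, and the pair stood level in the shPkm2-labelled libraries (1.004 and 1.0098).

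**Figure D3:**
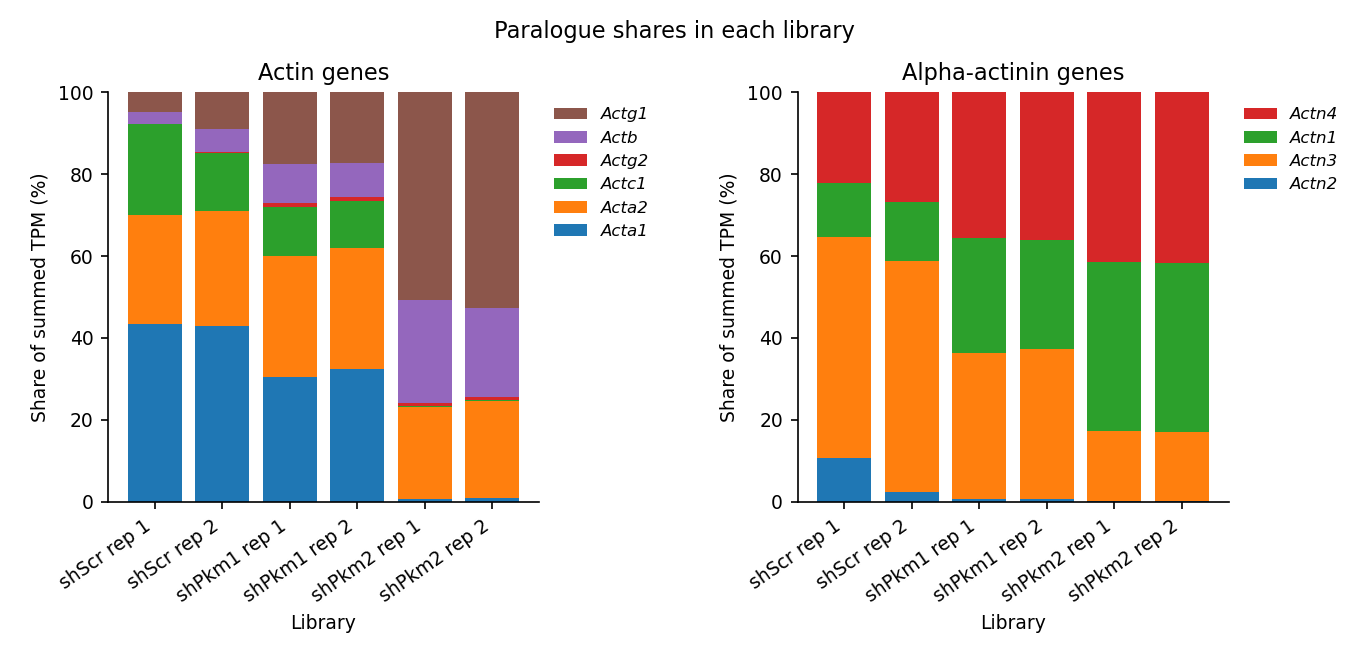
Share of each gene in the summed TPM of the 6 actins (left) and the 4 alpha-actinins (right), 1 bar per library. Acta1 shrinks from 42.9% and 43.5% of actin TPM in the control libraries to 0.756% and 0.768% in the shPkm2-labelled libraries, and Actg1 grows to 50.8% and 52.7%.

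The order of the levels changed with these shares. In shScr it ran from Acta1 through Acta2, Actc1, Actg1, Actb, Actn3, Actn4, Actn1 and Actn2 to Actg2. Neighbours whose libraries overlapped were Acta2 with Actc1 and Actn2 with Actg2. In shPkm1 Actg1 passed Actc1 and Actg2 passed Actn2, and Acta1 with Acta2 and Actn3 with Actn4 overlapped. In the shPkm2-labelled libraries the order was Actg1, Actb, Acta2, Actn4, Actn1, Actn3, Acta1, Actg2, Actc1 and Actn2, with overlap between Actb and Acta2 and between Actn4 and Actn1.

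The table holds 24 transcript rows for the 10 genes, and Actn4 was the gene whose rows shifted most between groups in percentage points of share. Its curated transcript NM_021895.2 made up 64.0% and 58.8% of Actn4 TPM in shScr, 81.8% and 81.0% in shPkm1, and 82.8% and 86.8% in the shPkm2-labelled libraries. The predicted transcript XM_006540255.3 held 18.6% and 22.0%, 11.4% and 9.96%, and 5.04% and 6.76%. The predicted XM_006540254.3 held 12.6% and 19.1%, 6.59% and 8.997%, and 12.2% and 6.19%. For these 3 transcripts the control libraries did not overlap with the other 4, narrowly so for XM_006540254.3, although the level of Actn4 itself did not pass the test. Shares within a gene are tied to each other, since they divide the same total. How often transcripts of other genes separate in this way was not counted. Shares of transcripts rest on how shared reads were divided by the authors' counting and were not tested.

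**Figure D4:**
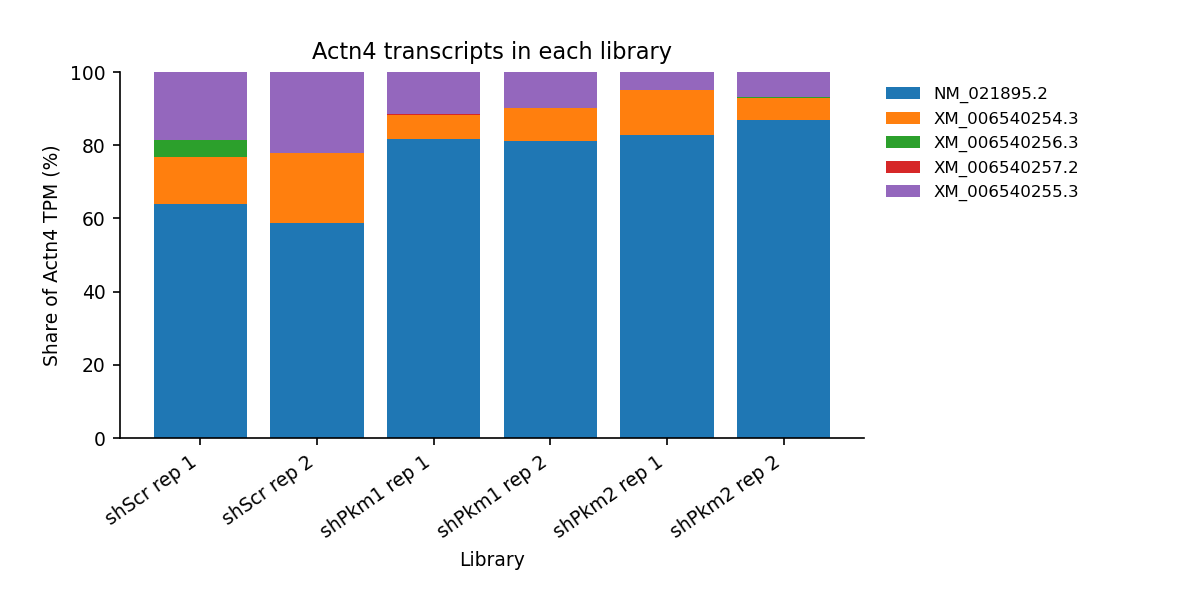
Share of each RefSeq transcript in the TPM of Actn4, 1 bar per library. NM_021895.2 takes 58.8% to 64.0% in the control libraries and 81.0% to 86.8% in the other 4.

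Other rows moved less in percentage points of share, though some moved more relative to their own share. The predicted Acta2 transcript XM_006526606.2 held 0.821% and 1.15% of Acta2 TPM in shScr, 1.77% and 2.59% in shPkm1, and 6.28% and 4.29% in the shPkm2-labelled libraries. Its own level was 76.6 and 80.4 TPM, 88.2 and 135 TPM, and 154 and 106 TPM, while the main transcript NM_007392.3 fell. Actn1 was mostly NM_134156.2 in every library (80.4% to 88.2%). A minor Actg1 transcript, NM_001313923.1, was picked out after its values had been seen: it went against its gene, from 36.04 and 25 TPM in shScr to 20.3 and 19.3 in shPkm1 and 4.29 and 4.4 in the shPkm2-labelled libraries.

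Genes with the most similar patterns were found by the Euclidean distance between profiles of log2 CPM over the 6 libraries, each centred on its own mean, among 10698 other genes. For Acta1 they were Mybph (distance 0.366), Mylpf (0.406) and Myl1 (0.455), and for Actc1 they were Myl1 (0.521), Mylpf (0.527) and Tnnc1 (0.664). All 4 encode proteins of the sarcomere. For Acta2 they were Pdk2 (0.230), Bin1 (0.267) and Chrnd (0.273), a pyruvate dehydrogenase kinase, a protein of membrane tubules and a subunit of the acetylcholine receptor. For Actn2 the distances were larger: Popdc2 at 1.05, Dhrs7c at 1.07 and Abra at 1.13. The nearest to Actb were Usp54 (0.0722), Fbf1 (0.108) and Nf1 (0.119), and those to Actn1 were Itpr3 (0.0634), Vipas39 (0.109) and Tyro3 (0.111). Within the family the closest pairs were Actb with Actn1 (0.297), Actb with Actg1 (0.436), Acta1 with Actc1 (0.498), Actg1 with Actn1 (0.506) and Acta2 with Actn3 (0.686). Actn2 lay 4.73 from Actn3. These distances are descriptions, and profiles share the libraries and their scaling.

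Partners of the sarcomeric members fell with them. Of 20 tested genes of the thin filament, 17 were lower and 0 higher in shPkm1 (median log2 fold change -1.46), and 18 were lower and 1 higher in the shPkm2-labelled libraries (median -5.51). Tnnc2, which binds calcium in fast troponin, had log2 fold changes of -2.39 and -8.02. Nrap, which takes part in the assembly of myofibrils, fell by 2.36 in shPkm1, and Tnni1, the slow inhibitory troponin, fell by 7.77 in the shPkm2-labelled libraries. Lmod2, which lengthens thin filaments, had a log2 fold change of -6.04 between the hairpin groups. Tpm3, a tropomyosin made in muscle and other cells, was the 1 rise (0.51, adjusted p 0.00055). The direct contrast gave 17 lower and 1 higher, with a median of -4.14. Over all genes the shares lower and higher were 31.4% and 31.8%, 34.2% and 33.9%, and 27.3% and 25.7% in these contrasts.

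Of 17 tested Z-disc partners, 12 were lower and 1 higher in shPkm1 (median -0.87), 16 were lower and 0 higher in the shPkm2-labelled libraries (median -3.31), and 14 were lower and 0 higher between them (median -1.56). Of all genes, 31.4%, 34.2% and 27.3% were lower. Ldb3, which binds alpha-actinin, fell by 2.00 in shPkm1, and Capza2, which caps filament ends, rose by 0.28 (adjusted p 0.0462). Csrp3, a muscle LIM protein, was at 50.7 and 51.3 TPM in shScr, 53.2 and 60.0 in shPkm1, and 0.33 and 0.21 in the shPkm2-labelled libraries. With 3 and 2 counts in the last group, this is at least 217-fold below shScr and at least 184-fold below shPkm1, against a floor of 3 counts per library. Tcap, the titin cap, was at least 132-fold below shScr by the same measure, and Myoz2, which links alpha-actinin to calcineurin, fell by 7.57.

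Among partners of the non-muscle members, genes were called in both directions. Of 23 genes of adhesions and stress fibres, 10 were higher and 3 lower in shPkm1 (median 0.24), where 31.8% and 31.4% of all genes were. With library totals these counts were 15 and 2 (median 0.43), where 65.8% of the 7772 calls over all genes were higher (median of all genes 0.19). In the shPkm2-labelled libraries, 10 were higher and 8 lower (median 0.01), not far from the 33.9% and 34.2% of all genes. The median was 0.34 with library totals, where that of all genes was 0.33. Between the hairpin groups 7 were higher and 10 lower (median -0.07), against 25.7% and 27.3% of all genes. The median was 0.06 with library totals, where that of all genes was 0.14. Fewer of the list were called in that contrast without shPkm1 library 1 or without shPkm2 library 1, and fewer over all genes too. Cald1 and Tpm4, which bind along actin filaments, rose by 1.13 and 1.05 in shPkm1, and Tes, an adhesion protein, and the non-muscle myosin Myh10 rose by 1.94 and 1.56 in the shPkm2-labelled libraries. Vasp and Enah, which promote filament growth at adhesions, had log2 fold changes of -1.57 and -1.61 there, and Vasp fell by 0.86 in shPkm1. Pdlim1, a partner of alpha-actinin, fell by 1.35 in shPkm1 and stood 1.36 higher, on the log2 scale, under the shPkm2 label than in shPkm1. Myl9, a light chain of non-muscle myosin, had a log2 fold change of -1.90 between the hairpin groups.

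Genes for actin monomer binding and filament turnover rose more often than they fell. Of 26, 13 were higher and 3 lower in shPkm1 (median 0.20), and 17 were higher and 5 lower in the shPkm2-labelled libraries (median 0.32). The shares over all genes were 31.8% higher and 31.4% lower, and 33.9% and 34.2%. The direct contrast had 10 higher and 6 lower (median 0.08), beside 25.7% and 27.3% of all genes. Fewer were called without any 1 of the 4 libraries it compares, and fewer over all genes too. Diaph3, a formin, rose by 1.93 and 2.86, and Twf1, which sequesters monomers, rose by 1.32 and 1.31. Tmsb10, a thymosin that binds monomers, had log2 fold changes of -0.91 and -1.44, and its level of 40370 TPM in shScr was above that of any actin. Cap2, a cyclase-associated protein of striated muscle, was at 11.01 and 3.77 TPM in shScr, 10.3 and 8.97 in shPkm1, and 0.17 and 0.06 in the shPkm2-labelled libraries.

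The transcription factor Srf was lower by a like amount in both hairpin groups. It was at 51.1 and 56.3 TPM in shScr, 41.5 and 41.7 in shPkm1, and 42.3 and 40.5 in the shPkm2-labelled libraries. The log2 fold changes were -0.81 (adjusted p 1.02e-05, SE 0.0964) and -0.86 (adjusted p 3.71e-06, SE 0.0964), and -0.06 between the groups (adjusted p 0.646, SE 0.0966). Mrtfa did not pass the test (0.21, adjusted p 0.071, and 0.21, adjusted p 0.0616). In TPM it stood at 41.9 and 46.9 in shScr, 67.4 and 66.3 in shPkm1, and 74.4 and 66.3 in the shPkm2-labelled libraries. Mrtfb had a value of 0.08 in shPkm1 (adjusted p 0.527) and rose by 0.52 in the shPkm2-labelled libraries (adjusted p 0.000963). Of the 7 tested genes around SRF, 3 were lower and 1 higher in each hairpin group against shScr (3 and 3 in each with library totals, and 3 and 4 for the shPkm2-labelled libraries in the limma fits), and Myocd was not tested for lack of counts. With 31.4% to 34.2% of all genes called in each direction, such counts among 7 genes stand near the background. With library totals, and in the limma fits for the shPkm2-labelled libraries, 65.8% to 69.3% of calls over all genes were higher. Abra, a striated muscle activator of this pathway that binds actin, was at 26.9 and 14.5 TPM in shScr and 2.66 and 2.92 in shPkm1. In the shPkm2-labelled libraries it had 2 and 3 counts, at least 184-fold below shScr.

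Smooth muscle contractile genes were mostly higher in shPkm1 than in the shPkm2-labelled libraries. Of 9 tested, 5 were higher and 2 lower in shPkm1 (median 0.49), 1 was higher and 5 lower in the shPkm2-labelled libraries (median -0.48), and between them 1 was higher and 7 lower (median -1.25). Over all genes 31.8% were higher and 31.4% lower in the first contrast, 33.9% and 34.2% in the second, and 25.7% and 27.3% in the third. Aoc3, an amine oxidase of smooth muscle and fat, was at 0.11 and 0.06 TPM in shScr, 22.7 and 22.9 in shPkm1, and 0.15 and 0.18 in the shPkm2-labelled libraries. Synm, an intermediate filament protein, rose by 1.72 in shPkm1, while Myl6 and Cnn2 had log2 fold changes of -0.61 and -0.43 there. Lmod1 fell by 4.01 and Tagln, a widely used early marker of smooth muscle, fell by 1.14 in the shPkm2-labelled libraries. Cnn1 was the 1 rise in that group (0.50). Acta2 and Actg2 are not counted in this list.

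Of 7 tested other members of the actin family, 0 were higher and 2 lower in shPkm1, and 2 were higher and 3 lower in the shPkm2-labelled libraries. Apart from the lack of rises in shPkm1 these counts are near the 31.4% to 34.2% of all genes. Library totals gave 4 higher and 0 lower in the shPkm2-labelled libraries, where 69.3% of the 8797 calls over all genes were higher. All these counts are small and moved with single libraries. Without either shPkm1 library fewer were lower in shPkm1, and without either shPkm2 library fewer were called in that group, as over all genes. Actl6a, an actin-related subunit of chromatin remodellers, had a log2 fold change of -0.31 (adjusted p 0.0117) in shPkm1 and 0.62 (adjusted p 5.68e-05) in the shPkm2-labelled libraries. Its mean TPM was 35.7 in shScr and 37.6 in shPkm1, so the direction in shPkm1 depended on the scaling. Actr5, a subunit of another remodeller, was lower in both groups (-0.61 and -0.35), but the second call was lost with library totals. Its mean TPM was 7.85 in shScr, 6.76 in shPkm1 and 8.42 in the shPkm2-labelled libraries. No actin-related gene of this list changed by as much as Acta1, Acta2 or Actc1 did.

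**Figure D5:**
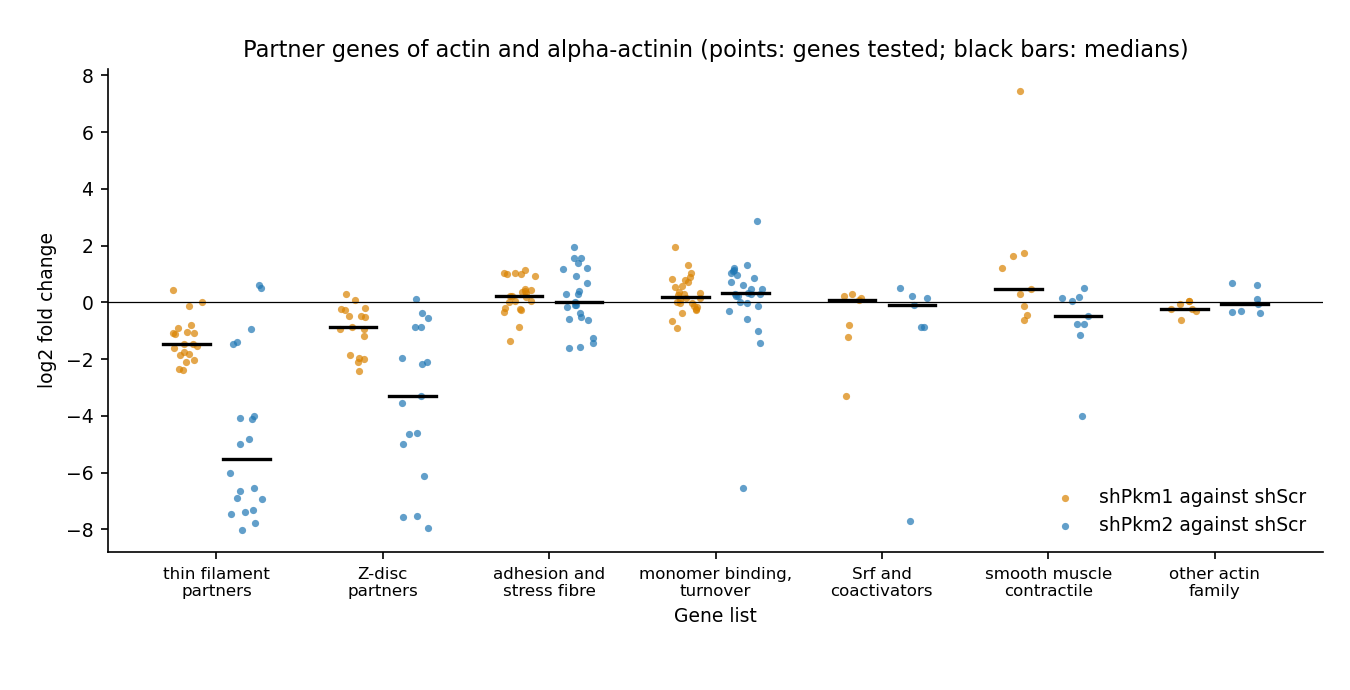
Log2 fold change against shScr of each tested gene in 7 lists of partners and relatives, with points for genes and black bars for medians. Thin filament and Z-disc partners lie mostly below 0, with medians of -1.46 and -0.87 in shPkm1 and -5.51 and -3.31 in the shPkm2-labelled libraries, while the other medians lie between -0.48 and 0.49.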

How the data were processed

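RNA of C2C12 cells from 3 groups of 2 libraries was isolated in TRIzol and made into libraries by BGI Americas, per the labels' protocols. The submitters' processing notes name HISAT, StringTie, Bowtie, RSEM, DESeq2 and mm10, without versions or roles. For 57920 RefSeq transcripts the authors deposited 3 values per library, which the file headers name as read count (an estimated count, not always whole), FPKM and TPM. Deposited FPKM and TPM are both per length and per depth. A further 9 columns of group means were not used.

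Values were summed per NCBI gene (17558 genes, of which 17445 matched a symbol), and summed counts were rounded. Genes were filtered with filterByExpr (minimum count 10, minimum total 15), scaled by TMM and tested with edgeR 4.0.16 (R 4.3.3) by the quasi-likelihood F-test on all 6 libraries, two-sided, with Benjamini-Hochberg adjustment over 12643 genes and a threshold of 0.05. The biological coefficient of variation was 0.0851. The SE was taken as log2 fold change over the root of F. Levels and shares use TPM and were not tested. Tests were checked on simulated counts.

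The members and lists were chosen with earlier results of these data known. The named genes were the 10 members, Srf, Mrtfa, Mrtfb and Pkm. Per list and contrast, further genes were drawn from up to 2 risen and 2 fallen genes that passed the threshold and had 50 or more counts on average. Of each of 6 members the 3 nearest genes were named. Transcripts were drawn from those with at least 5% of their gene's TPM in a group mean. Not all partner genes and transcripts that met these rules are given. Csrp3, Tcap, Cap2, Abra and Aoc3, with 3 or fewer counts in a library, are given by level or bound. Alternatives were DESeq2 size factors, library totals, no filter, a filter at a mean of 50 counts, DESeq2 1.42.0, fits on 2 groups at a time, a replicate block, limma 3.58.1 on log2(FPKM + 1) and log2(FPKM + 0.1), and leaving out each library. Coding sequences were aligned with Biopython 1.88.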

Additional observations from a re-analysis of the deposited data

How the results depend on the processing

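With 2 libraries per group, 1 library can move a call, and the control pair differed most. For the 10 genes in 3 contrasts, 429 of 450 log2 fold changes under an alternative kept their direction and side of the threshold, 10 gained a call, 2 lost it and 9 changed sign. The number of genes higher in shPkm1 was 3 in place of 1 with library totals and with limma on log2(FPKM + 1) or log2(FPKM + 0.1), and 1 to 3 when libraries were left out, the 3 being without control library 2. Signs changed for values without a call. Actg2 and Actn4 in the shPkm2-labelled libraries against shScr were 0.15 and 0.15 with library totals, 0.15 and 0.15 with limma on log2(FPKM + 1), and 0.16 and 0.15 on log2(FPKM + 0.1). Leaving out libraries gave -0.13 to 0.20 for Actb in shPkm1 and -0.10 to 0.14 for Actn4 between the hairpin groups. Shares from estimated counts, which are not per length, were 29.6% for muscle actins in the shPkm2-labelled libraries, and 55.2%, 30.7% and 13.6% for sarcomeric alpha-actinins in shScr, shPkm1 and the shPkm2-labelled libraries. The cause of these shifts was not tested, except that count shares follow from transcript length. Equal replicate numbers did not pair the samples (correlations of their deviations -0.0256, 0.0418 and 0.0527). With the replicate number as a block the genes called were again 6, 8 and 9, and no call of the 10 genes changed. Depth limits Actn2, with 12 and 16 counts in its lowest group.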
